A study of Mus musculus with 24 samples.

Results

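5mC was mapped in mouse embryonic stem (mES) cells by MeDIP-seq, the sequencing of DNA pulled down with an antibody to 5-methylcytosine (5mC), and the windows described here are the 100 bp windows of chromosome 12 that differed between Tet2-KO and WT cells. The authors listed 14279 windows of the genome with an adjusted p-value under 0.1, which is 0.336% of the 4252847 windows they tested, and 1133 of those lay on chromosome 12. Of the 1133 members, 1092 were lower and 41 were higher in Tet2-KO cells, against 0.279% listed as lower and 0.0568% listed as higher among all windows tested. The members were selected on these same libraries, so the count, the direction and the size of the difference are given as descriptions, with no test. A stretch of 10 Mb, from 20 to 30 Mb of the chromosome and chosen with earlier results of these data known, was set against the rest. It held 539 of the members, 527 of them lower and 12 higher, and the rest of the chromosome held 594, 565 of them lower and 29 higher. These counts use reads scaled to library size. Scaled instead to the listed windows themselves, which are mostly lower and so shift every log2 difference upwards by a median of 1.85 or 1.87, the split was 904 lower and 229 higher (median-of-ratios factors) or 895 and 238 (TMM factors).

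Both groups of the main comparison were mES cells transfected with the control siRNA siNC. One group was WT and the other Tet2-KO, each with 3 immunoprecipitated (IP) libraries of between 8.92 and 15.4 M (mega) reads. The WT and Tet2-KO cells were established lines received from another laboratory, and how many clones they represent is not given in the sources used here. A second experiment, used as context, had 3 IP and 3 input libraries each of Pspc1-KO and WT cells without siRNA, and input libraries are sequenced without the antibody. A knockdown of Nsun2 by the siRNA siNsun2 gave 3 further IP libraries each of WT and Tet2-KO cells, also used as context. The study describes its genome-wide data as biological replicates, and the labels do not say whether the samples of a group were separate cultures, so p-values measure the spread between these samples. Replicates 2 and 3 of Tet2-KO differed by less than the sampling noise (chi-square per degree of freedom 0.958), as did replicates 2 and 3 of WT (0.953), whereas the other pairs of these groups lay between 1.26 and 1.51. Each such pair was averaged and counted as 1 sample, so n = 2 for every SD of this comparison. As a check of the labels, 5 listed windows inside Tet2 on chromosome 3 held 0 reads in each Tet2-KO library and 62, 83 and 78 reads in the WT libraries.

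5mC marks most CpG sites of mammalian DNA and keeps transposable elements silent. TET2 is a dioxygenase that oxidises 5mC in DNA and also the corresponding base m5C in RNA, and PSPC1 is an RNA-binding protein that recruits TET2 to chromatin. Intracisternal A particles (IAPs), a family of endogenous retroviruses with long terminal repeats (LTRs), and LINE-1 elements are young mouse repeats that carry dense 5mC in most cells. The MeDIP signal rises with the amount of DNA, with the number of CpG sites and with their methylation. Input DNA was not analysed here for the Tet2 comparison, so in its windows a change in 5mC and a change in DNA copy number cannot be told apart.

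The sequences that carry the pattern are shown from the mm10 assembly, on the plus strand, with each CpG in capitals. A tandem array held 2 of the 3 block regions with the largest RPKM difference, and the same 100 bases occur in 3 of its units, at chr12:20156001-20156100, chr12:20158461-20158560 and chr12:20160921-20161020. The window of an Asap2 intron further along the block shares the first 63 bases of that sequence. The windows of Npas3 and Ahnak2 stand for local repeats outside the block, and those of Snx6 and of the transcript Gm49692 for windows that were higher in Tet2-KO cells.
array unit: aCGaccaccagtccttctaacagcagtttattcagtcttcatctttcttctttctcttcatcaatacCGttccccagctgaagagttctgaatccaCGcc
Asap2 intron, chr12:20998101-20998200: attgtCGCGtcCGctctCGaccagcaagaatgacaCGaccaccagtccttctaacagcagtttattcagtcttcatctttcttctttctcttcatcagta
Npas3 intron, chr12:53707601-53707700: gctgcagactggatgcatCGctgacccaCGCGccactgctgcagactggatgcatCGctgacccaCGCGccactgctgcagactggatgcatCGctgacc
Ahnak2 exon, chr12:112781701-112781800: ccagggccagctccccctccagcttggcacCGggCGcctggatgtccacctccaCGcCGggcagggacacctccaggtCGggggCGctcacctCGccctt
Snx6 intron, chr12:54775001-54775100: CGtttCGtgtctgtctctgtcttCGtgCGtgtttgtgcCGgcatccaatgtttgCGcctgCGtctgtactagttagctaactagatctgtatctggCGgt
Gm49692 intron, chr12:20250601-20250700: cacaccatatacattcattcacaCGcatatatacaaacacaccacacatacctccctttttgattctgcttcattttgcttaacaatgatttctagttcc

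The lower windows were concentrated at the start of the block and just before it. The block held 52.7 lower windows per Mb, the rest of the chromosome 5.13 and the other autosomes 3.46. The block was chosen with earlier results of these data known, so its density is a description. The density did not begin at the block's lower edge: the 3 Mb from 17 to 20 Mb, a flank chosen after the values were seen, held 241 lower and 9 higher windows, or 80.3 lower windows per Mb. Between 17 and 25 Mb there were 690 of the 1092 lower windows, and between 25 and 30 Mb there were 78. Without the flank, the remaining chromosome held 324 lower and 20 higher windows, 3.02 and 0.187 per Mb, against 3.46 and 0.966 per Mb on the other autosomes. Among all 2737 bins of 1 Mb of the genome, 17 held at least 80 lower windows and 5 of those were on chromosome 12. The bin with most lower windows on this chromosome, from 19 Mb, held 123 and ranked 6 in the genome, behind bins of chromosomes 1, 6, 8 and 13. A separate bin at 112 Mb held 53, all of them in Ahnak2.

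**Figure D1:**
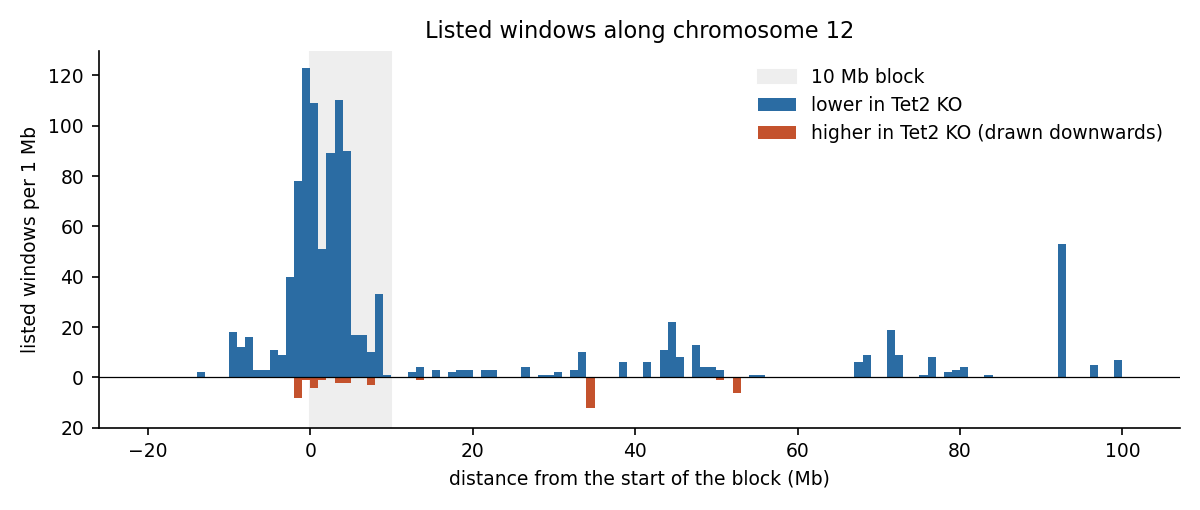
Listed windows per 1 Mb of chromosome 12 (vertical axis, higher windows drawn downwards) against the distance from the start of the block in Mb (horizontal axis, shaded from 0 to 10 Mb). The dense stretch begins 3 Mb before the block and ends 5 Mb into it, with 123 lower windows in its fullest bin.

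The values just inside and just outside each edge of the block rest on 1 window each. The last member before the lower edge, at 19948101, read 2.24, 2.84 and 1.41 RPKM (read counts scaled to window length and library size) in Tet2-KO and 13.0, 15.1 and 14.3 in WT. The next member, at 20021401, lay inside and read 0 in each Tet2-KO library and 7.81, 7.53 and 9.12 in WT. The last member inside the upper edge, at 29379501, also read 0 in each Tet2-KO library, with 8.67, 6.02 and 8.47 in WT. The next one, at 32536301, read 4.48, 4.98 and 2.12 in Tet2-KO and 25.1, 14.3 and 18.2 in WT.

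Summed over all copy numbers, lower windows of the block kept a smaller share of the WT signal than those of the remaining chromosome. The mean level over the 527 lower windows of the block was 6.18, 6.43 and 6.25 RPKM in the Tet2-KO libraries and 35.7, 34.2 and 34.7 RPKM in the WT libraries. The Tet2-KO libraries thus held between 17.7% and 18.4% of the WT mean there, and between 14.2% and 15.4% in the flank. Over the 324 lower windows of the remaining chromosome the mean was 10.7, 10.3 and 10.3 RPKM in Tet2-KO and 39.3, 34.8 and 34.7 RPKM in WT, so that 28.3% to 29.6% was left. On the other chromosomes the 10773 lower windows kept between 29.5% and 32%.

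On the scale of log2(RPKM + 0.1), the median difference of the lower windows, Tet2-KO minus WT, was -4.03 in the block (SD 0.15 over the Tet2-KO samples, n = 2) and -2.84 in the rest (SD 0.09, n = 2). It was -5.0 in the flank, where the spread was wider (SD 1.19, n = 2), and -2.28 in the remaining chromosome (SD 0.03, n = 2). Much of this gap came from windows with few reads: 59.0% of the lower windows of the block, 71.4% of those of the flank and 18.2% of those of the remaining chromosome had at most 3 reads in every Tet2-KO library. With such windows placed at the level that 3 reads per library would give, the medians were -2.55 in the block, -2.58 in the flank, -2.32 in the rest and -2.11 in the remaining chromosome. Complete absence of reads in all Tet2-KO libraries was recorded for 110 lower windows of the block (20.9%), for 78 of the flank (32.4%) and for 17 of the remaining chromosome (5.25%). That 0 of the 1092 lower windows had at most 3 reads in every WT library follows from the choice of members.

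The higher windows were few, and their median differences were close in the block and the flank only with low WT levels put at a floor. The 12 higher windows of the block had a median difference of 3.19 on the same log2 scale (SD 0.06 over the Tet2-KO samples, n = 2), or 3.80 without WT replicate 1, and the 29 of the rest had 1.84 (SD 0.31, n = 2). With WT levels of at most 3 reads per library put at that floor, as applied to 8 of the 12, the median of the block was 2.29. The 9 higher windows of the flank had 2.82, or 2.25 with that floor, and the 20 of the remaining chromosome had 1.81. In absolute level the mean over the higher windows was 15.2, 18.6 and 16.2 RPKM in the Tet2-KO libraries inside the block and 54.5, 46.3 and 46.7 RPKM outside it. Without the 12 windows of Snx6, left out after the data were seen, the 17 others outside had 18.3, 19.5 and 18 RPKM, and the 9 of the flank had 16.6, 15.7 and 16.4 RPKM. All 1133 members had Tet2-KO and WT libraries that did not overlap, as the choice of members fixes. The relative methylation score pointed the same way as the RPKM in all of them. It is given for the same libraries and windows and is no separate measurement. In the lower windows of the block the median of that score was 0.170 in Tet2-KO and 0.470 in WT.

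**Figure D2:**
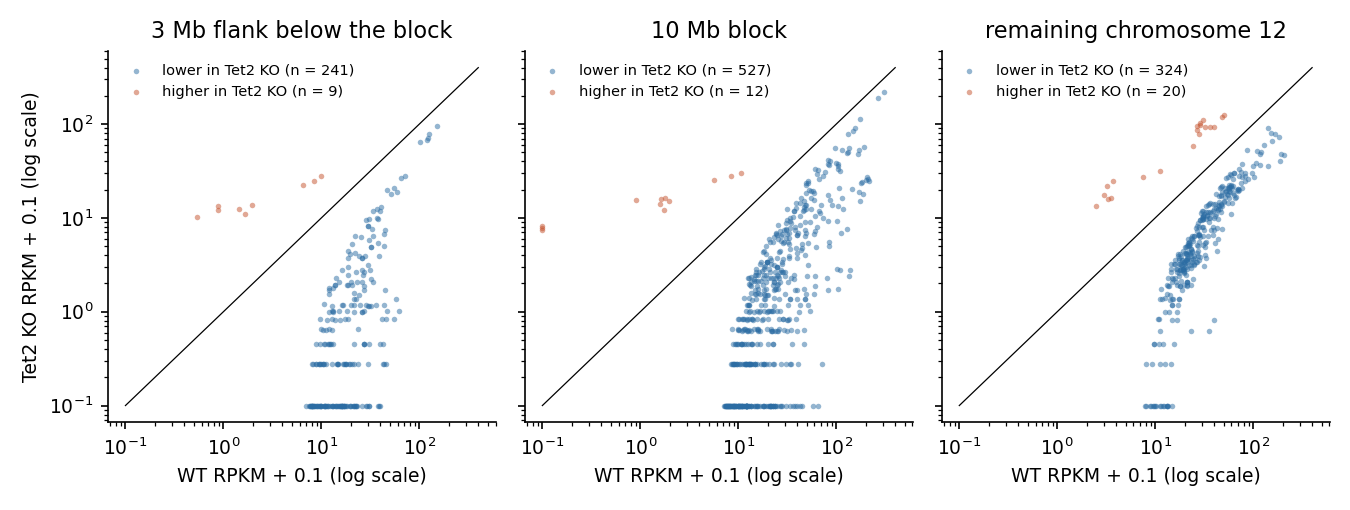
Mean RPKM of each listed window in Tet2-KO (vertical axis) against WT (horizontal axis), both as RPKM + 0.1 on log scales, for the flank, the block and the remaining chromosome; the line marks equal levels. The points on the lowest row are windows with 0 reads in all Tet2-KO libraries, 110 lower windows in the block and 17 in the remaining chromosome.

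Beside all reference windows, the members were CpG-rich and repetitive. Here and below, all windows means every reference window of a stretch, whether or not the authors tested it. Over the genome 4252847 windows were tested, those with enough MeDIP reads, against 27255213 windows on the assembled chromosomes. The shares thus do not separate traits of the change from traits of windows that could be tested. The lower windows had a median of 3 CpG sites per 100 bp in the block and 6 in the remaining chromosome, whereas the median chromosome 12 window had 0 and 52.0% of windows had none. Repeat-masked bases covered at least 50% of the window in 78.9% of the lower windows of the block, 75.5% of the flank and 65.1% of the remaining chromosome, against 29.3% of all windows of the chromosome. A window's copies were counted as exact matches of its central 32 bases in the primary assembly. Lower windows had 1 copy in 21.1% of cases in the block, 34.9% in the flank and 17.9% in the remaining chromosome, and for all windows of these stretches the shares were 60.3%, 42.2% and 85.6%. The block is itself rich in sequence that recurs within it: 34.9% of all its windows had another copy inside the block, against 6.48% in the remaining chromosome, and for its lower windows the share was 66.8%. Lower windows elsewhere also had copies in the block, 40.1% of those of the remaining chromosome and 28.8% of those of the other chromosomes. In the flank the order was the other way round, with a copy in the block for 49.7% of all windows and 32.4% of the lower ones. Lower windows of the other chromosomes had like traits, with a median of 4 CpG sites, 74.2% of them repeat-masked over at least 50% and 24.5% with 1 copy. The aligner reported the best position of a read, and how it placed reads that matched several copies can move signal among copies, which was not tested.

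With 1 reference copy, the 111 lower windows of the block had a median difference of -4.60 and the 142 of the rest had -4.45, a value that joins the flank with the remaining chromosome. In the block 31 of them held 0 reads in all Tet2-KO libraries. They kept between 26.1% and 26.7% of the summed WT level, and between 10.1% and 10.8% without the 5 windows of Gm49692, an omission chosen after the data were seen. The 84 of the flank had -6.08 and kept between 6.94% and 8.11% of the WT level. The 58 of the remaining chromosome had -2.07 and kept between 27.8% and 27.9%. With windows at the floor put at their bound, the medians were -2.42 in the block, -2.44 in the flank and -1.94 in the remaining chromosome. For windows with 2 to 10 copies the values were 11.0% to 11.6% in the block and 27.5% to 30.3% in the remaining chromosome.

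Primers and the guide target that the study designed against repeats gave a way to name some of these sequences, by exact matches on either strand of chromosome 12. Of the 601 positions matched by the 13 IAP oligos, 28 were in the block and 44 in the flank. In the flank, 74 of 241 lower windows (30.7%) lay within 5 kb of an IAP match, against 4.18% of all windows there. In the block the numbers were 54 of 527 (10.2%) against 1.22%, in the remaining chromosome 7 of 324 (2.16%) against 1.01%, and on the other assembled chromosomes 937 of 10759 (8.71%) against 1.27%. The longest of the IAP oligos, a guide target in IAPEz, matched 46 positions on the chromosome and is shown with the forward LINE primer, which matched 620, because the distances below are measured from such matches.
IAPEz guide target: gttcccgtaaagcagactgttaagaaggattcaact
mLINE-F: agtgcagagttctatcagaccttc

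LINE matches were most frequent beside lower windows of the remaining chromosome. In the remaining chromosome 154 of 324 lower windows (47.5%) lay within 5 kb of a LINE primer match, against 7.12% of all windows there and 29.6% of the lower windows of other chromosomes. In the block 11 of 527 (2.09%) did so, below the 3.92% of all its windows. In the flank, where IAP matches were also frequent, 20 of 241 (8.30%) did so, against 4.37% of all its windows. The position was narrow: 119 of the 324 lay 2000 to 4000 bases upstream of the forward primer in the primer's own orientation, where 1.08% of all windows lay, and 72 of those fell within 500 bases. These 119 windows had a median of 6 CpG sites and a median difference of -2.71. Within that range 1.06% of the reference windows were listed. MERVL primers, for another endogenous retrovirus, had 72 matches and 0 lower windows within 5 kb, where 0.400% of all windows of the block, 2.0% of the flank and 0.289% of the remaining chromosome lay. SINE primers had 530 matches, with 12 of 527 lower windows of the block near them (2.28% against 2.07% of all), 0 of 241 in the flank (against 2.94%) and 9 of 324 in the remaining chromosome (2.78% against 4.50%). MusD primers, for a further one, had 6 matches, and 8 of the 324 lower windows of the remaining chromosome (2.47%) lay within 5 kb of them, against 0.0292% of all windows. Near neither an IAP nor a LINE match were 462 of the 527 lower windows of the block (87.7%), and 77.3% of those were repeat-masked over at least 50% of their length. Of all block windows 1.22% lay near an IAP and 3.92% near a LINE match, so lying near neither was not particular to the lower ones.

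**Figure D3:**
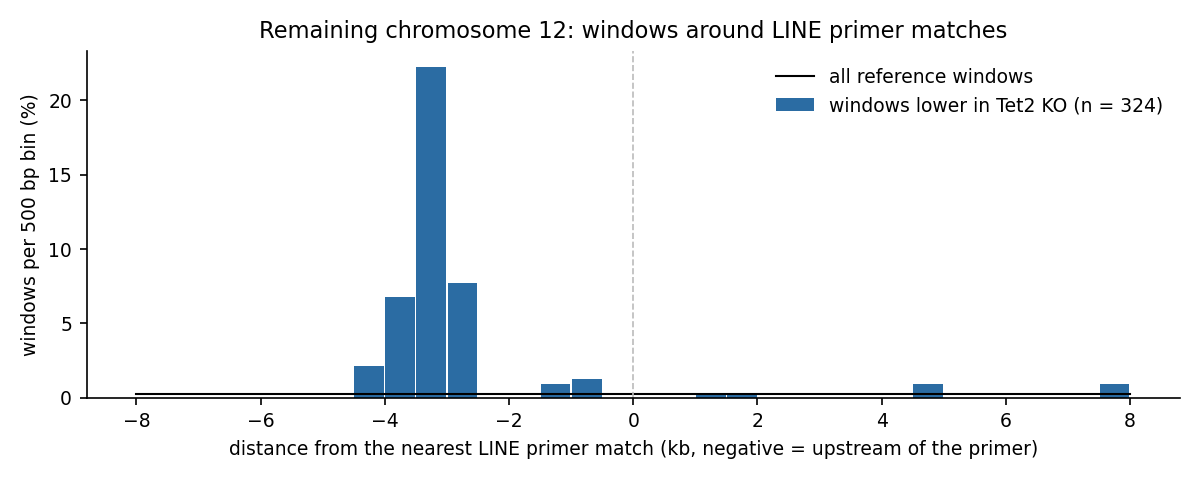
Share of windows in each 500 bp bin (vertical axis, percent) by distance to the nearest forward LINE primer match in kb (horizontal axis, negative values upstream of the primer) for the 324 lower windows of the remaining chromosome (bars) and all reference windows there (line). The 119 lower windows between 4 and 2 kb upstream form the peak, while the line stays under 0.3% throughout.

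Merged without a gap, the members formed 338 regions, 319 lower and 19 higher, of a median length of 300 bp for the lower and 100 bp for the higher ones. Of the lower regions, 240 lay outside annotated genes (75.2%), 59 in introns and 20 overlapped an exon, while 57.6% of the chromosome's bases lie outside genes. In the flank the share outside genes was 91.2%, against 74.6% of its bases. A transcription start lay within 1 kb of 18 lower regions (5.64%), a count given without the share for all windows. Regions that share at least 30% of their 24-base words were joined into families, which took in 189 of the 338 regions. The largest family had 55 regions, 48 of them in the remaining chromosome, and 51 lay near a LINE match. The next had 32 regions, 23 of them in the block and 0 near an IAP or LINE match, with a median difference of -2.73. The family after it had 28 regions, 13 in the block and 10 in the flank, of which 20 lay near an IAP match. A pair of families, each of 7 regions, lay wholly in the block, with 16 and 49 windows.

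The tandem array at chr12:20153401-20161800, outside any gene, held 63 listed windows among its 84 and included 2 of the 3 block regions of at least 2 windows with the largest difference in mean RPKM. Over the listed windows the mean was 5.10, 5.36 and 6.56 RPKM in Tet2-KO and 70.7, 67.1 and 67.4 RPKM in WT, giving 5.53 ± 0.605 and 69.0 ± 2.43 (SD, n = 2 each). The log2 difference was -3.62. The sequence repeated at a distance of 2460 bp with 96.7% identity over 5940 bases, and at 4920 bp with 94.3%. The WT signal repeated with it. At 20156001 it was 212, 199 and 178 RPKM, at 20158501 it was 235, 195 and 205, and at 20160901 it was 215, 205 and 209. The corresponding Tet2-KO values were 22.4, 23.5 and 31.8, then 28.0, 18.5 and 24.0, then 20.2, 29.9 and 34.6 RPKM. A maximum near the start of the array, at 20153601, was lower in WT, with 107, 92.6 and 106 RPKM, and read 2.24, 0.710 and 1.41 RPKM in Tet2-KO. The maxima lay 200, 2600, 5100 and 7500 bp from the start of the array, so the first was also close to the 2460 bp spacing. Tet2-KO cells thus kept a signal at the 3 later maxima and little at the first. Since the units carry identical 100-base segments, reads from them cannot be assigned to a unit by sequence alone.

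**Figure D4:**
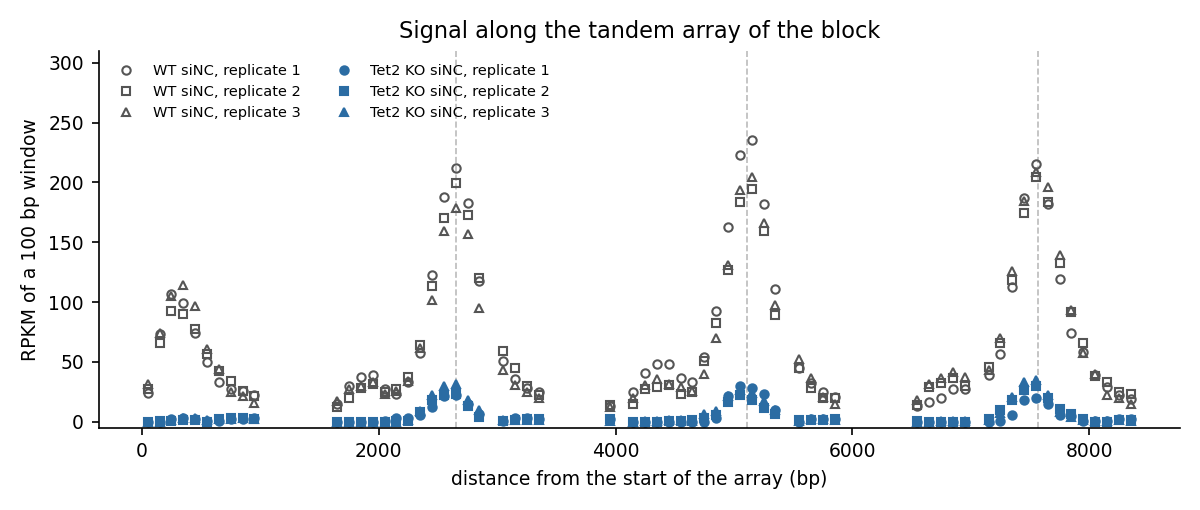
RPKM of each listed 100 bp window (vertical axis) along the array (horizontal axis, bp from its start) in the 3 WT (open symbols) and 3 Tet2-KO libraries (filled symbols); dashed lines mark positions 2460 bp apart. The WT libraries reach 178 to 235 RPKM at these positions and the Tet2-KO libraries 18.5 to 34.6 RPKM; windows not listed are not drawn.

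Among regions of at least 2 windows, the largest difference in mean RPKM in the block was in an intron of Asap2, an Arf GTPase-activating protein, at chr12:20997901-20998500. It read 32.9, 40.8 and 35.2 RPKM in Tet2-KO and 131, 139 and 120 in WT (log2 difference -1.88), and its windows had a median of 278 copies. Asap2 held 41 listed windows in all, each of them lower and 40 of them intronic, the most of any protein-coding gene of the block. Its mean level was 12.8 ± 0.314 RPKM in Tet2-KO and 52.9 ± 0.197 in WT (SD, n = 2). The transcripts Gm30124 and Gm21989 overlap it and share 36 of these windows.

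Of the 30 protein-coding genes that overlap the block, 12 held a listed window in their body or 1 kb flanks, 11 of them lower windows alone, against 32 of 643 (4.98%) on the whole chromosome. Several had all their lower windows at or under 3 reads in each Tet2-KO library. The 8 windows of Cys1, which encodes the ciliary protein cystin, read 0.98, 0.621 and 0.355 RPKM in Tet2-KO and 31.7, 39.8 and 42.8 in WT. The median Cys1 window had a single reference copy. Eipr1, which acts in endosomal trafficking, read 0.480, 1.12 and 0 RPKM in Tet2-KO and 19.8, 21.8 and 16.9 in WT over 7 windows. The Eipr1 windows had a median of 286 reference copies. Dcdc2c, a doublecortin-domain gene, read 1.28, 0.811 and 0.203 RPKM against 13.4, 10.3 and 13.2 over 7 windows, with a median of 1 copy. In none of these 3 genes did the groups overlap, as the choice of members fixes. Grhl1, an epithelial transcription factor, had 2 windows at the floor, with 3.36, 0.710 and 0.710 RPKM against 13.9, 22.6 and 10.4.

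Further genes of the block had windows above that floor. The 10 windows of 9030624G23Rik read 9.30, 9.67 and 7.83 RPKM in Tet2-KO and 38.5, 42.1 and 38.0 in WT. Rnf144a, an E3 ubiquitin ligase, read 1.79, 4.27 and 5.50 against 38.5, 33.0 and 34.1 RPKM over 5 intronic windows. Taf1b, a subunit of the RNA polymerase I initiation factor, had 4 windows, 2 of them at the floor, with means of 1.07 and 14.8 RPKM. The 2 windows of Cpsf3, the endonuclease of pre-mRNA 3′ processing, and the 2 of Cmpk2, a mitochondrial nucleotide kinase, overlapped exons, with means of 27.1 against 57.7 RPKM and of 5.63 against 20.6 RPKM. Mboat2, a lysophospholipid acyltransferase, had 1 lower and 1 higher window.

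Under the scaling to listed windows, the median over all Asap2 windows stayed lower, while the medians of the named Asap2 region and of the Cpsf3, Cmpk2 and Mboat2 windows turned to higher.

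Outside the block, 20 of 613 protein-coding genes held a listed window, 16 with lower and 4 with higher windows alone. Ahnak2, which encodes a very large protein built of internal repeats, held 53 windows, all of them exonic and lower. They read 16.9, 14.0 and 15.2 RPKM in Tet2-KO and 54.2, 45.5 and 43.6 in WT, with a median difference of -1.72, which turned to higher under the scaling to listed windows. The longest lower region of the chromosome, chr12:112781401-112782900, lay here, and its sequence matched itself at a distance of 519 bp with 95.4% identity. Ahnak2 windows had a median of 15 copies, with a median of 0 on other chromosomes, and 5.21% of their bases were repeat-masked.

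The largest difference in mean RPKM among lower regions outside the block was in an intron of Npas3, a neuronal transcription factor, at chr12:53707101-53708100. It read 32.2, 30.4 and 26.7 RPKM in Tet2-KO and 124, 109 and 102 in WT, or 30.4 ± 2.56 and 115 ± 12.9 (SD, n = 2), and turned to higher under the scaling to listed windows. This region also matched itself best at a short distance, 37 bp, with 64.2% identity over 963 bases, and the printed window shows the repeated unit. The next region was intronic to Cep128, a centriolar gene, and read 63.7, 56.2 and 60.2 against 152, 134 and 129 RPKM. The region after it, at chr12:98355501-98355700 outside genes, read 42.0, 65.8 and 48.3 against 118, 105 and 112 RPKM. Both were almost entirely repeat-masked, and both turned to higher under the scaling to listed windows.

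Further genes with several lower windows were Cep128 with 15, Fam49a with 12, Ptprn2, a receptor-type phosphatase of secretory granules, with 5, Lpin1, a phosphatidate phosphatase, with 4, Dglucy with 4 and Immp2l, a mitochondrial inner membrane peptidase subunit, with 3, of which Immp2l turned to higher under that scaling. Nubpl, Abhd12b and Tdp1 tied with it at 3 windows, and of these Abhd12b turned as well. The windows of these genes were intronic except 1 exonic window of Lpin1 and the 3 of Abhd12b, which lay in its 1 kb flank. Levels of Fam49a were 12.8 ± 1.59 RPKM in Tet2-KO and 45.3 ± 2.23 in WT, and those of Lpin1 6.98 ± 3.53 and 40.5 ± 2.54 (SD, n = 2).

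The longest higher region of the chromosome lay in an intron of Snx6, a sorting nexin of the retromer pathway, at chr12:54774801-54776000. Its 12 windows read 106, 84.3 and 87.3 RPKM in Tet2-KO and 35.4, 29.2 and 32.9 in WT, or 95.8 ± 14.2 and 33.2 ± 3.09 (SD, n = 2), a log2 difference of 1.52. The windows had a median of 34 copies. Dhrs7, a short-chain dehydrogenase, had 4 higher windows at 17.6, 25.9 and 18.9 RPKM against 3.04, 3.39 and 3.58. Lrrc9 had 2 at 33.1, 25.9 and 25.8 RPKM against 7.80, 9.79 and 11.7. The higher regions of Dhrs7 and Lrrc9 named here had windows with a median of 1 copy.

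The block held 8 higher regions, 5 of them of 1 window. Among the 3 of at least 2 windows, that with the largest difference in mean RPKM lay in an intron of Gm49692 at chr12:20250601-20250800, with 21.9, 34.5 and 28.9 RPKM in Tet2-KO and 5.64, 10.2 and 6.19 in WT. The next of these, at chr12:27186801-27187100 outside genes, read 13.1, 17.3 and 14.3 against 2.60, 1.26 and 0.433 RPKM and had 1 copy. The last of these, at chr12:20265001-20265200 in Gm49692, read 6.72, 11.4 and 7.05 RPKM in Tet2-KO and 0 in each WT library. Gm49692 thus carried 4 higher and 6 lower windows within its body. Its lower regions had log2 differences of only -0.81 to -0.48, smaller than the shift of 1.85 under the scaling to listed windows.

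Lists of genes with known roles were read by their counts. Over the whole chromosome, 62 of 2480 annotated genes (2.5%) held a listed window in their body or 1 kb flanks, the share against which the lists are read. Of 9 stem cell and DNA methylation genes of the chromosome, among them Dnmt3a, Esrrb and Mycn, 0 did. The count was also 0 for 7 genes of the imprinted Dlk1-Dio3 domain, for 6 zinc finger genes named Zfp and for 215 immunoglobulin heavy chain genes. Of 28 serpin genes 1 did, Serpina1b, an alpha-1-antitrypsin gene, whose single window read 8.97, 14.2 and 9.88 RPKM in Tet2-KO and 30.4, 28.6 and 33.2 in WT, and turned to higher under the scaling to listed windows. Genes without a listed window may have changed by amounts that the authors' threshold did not pass.

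The second experiment compared Pspc1-KO with WT cells and shared no library with the first. The authors listed 307 windows there, 0.00571% of the 5378176 tested, and 0.00463% were listed as lower. On chromosome 12 there were 43, all of them lower in Pspc1-KO cells, and 0 were in the block. They lay at 3 loci: an intron of the long non-coding RNA Gm38407, the Npas3 intron and the Ahnak2 exon. Of the 43, 34 were also members (79.1% of the Pspc1 list and 3.00% of the members), each lower in both, whereas 137 of the 264 windows on other chromosomes were on both lists (51.9%).

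Over the 34 windows on both lists, Tet2-KO libraries had a smaller share of the WT level than Pspc1-KO libraries had of theirs, 29.3% and 64.6%. In Ahnak2, 24 windows read 57.3, 58.8 and 60.3 RPKM in Pspc1-KO and 89.8, 88.8 and 91.1 in WT, a median log2 difference of -0.64, and the same windows in the Tet2 experiment had -1.65. In Npas3, 6 windows read 218, 209 and 219 RPKM against 323, 340 and 331, or -0.65, where the Tet2 experiment gave -2.01. In Gm38407, 4 windows read 68.2, 68.5 and 62.4 RPKM against 108, 106 and 112, or -0.72. The same 4 read 15.1, 20.6 and 22.6 RPKM in Tet2-KO and 54.0, 68.3 and 73.1 in WT siNC, or -1.82. The groups did not overlap at any of the 3 loci in either experiment, as the choice of windows in both fixes. The WT level itself was higher in the second experiment at each locus. The size of the difference between the experiments was not tested, since the windows were selected in both.

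**Figure D5:**
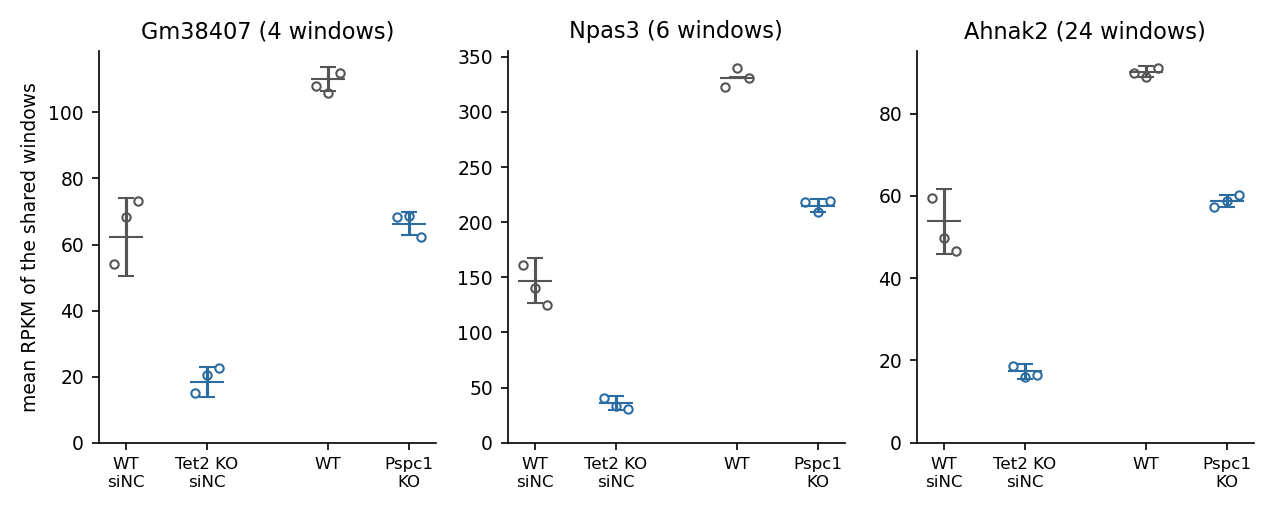
Mean RPKM (vertical axis, from 0) over the windows on both lists at Gm38407, Npas3 and Ahnak2, for WT and KO of the Tet2 experiment and of the Pspc1 experiment (horizontal axis); circles are the 3 libraries, bars the mean and SD (n = 2, or 3 for Pspc1-KO). The KO libraries lie below their WT libraries in all 6 pairs of groups, as the choice of windows fixes.

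The input libraries of this experiment are not part of the authors' comparison of IP libraries and allowed a test of DNA amount at the 43 windows. Summed over these windows, the input held 67, 40 and 34 reads in Pspc1-KO and 68, 61 and 61 in WT, or 5.91, 3.71 and 3.23 RPM against 5.04, 5.41 and 4.12 RPM, the reads per library scaled to its depth. The log2 difference of -0.22 (SE 0.29, n = 3 each) was within the spread of the libraries (exact permutation test, two-sided, p = 0.5, where 3 libraries a group allow no p below 0.1). By locus the ratio of Pspc1-KO to WT input, per read sequenced, was 0.898 in Ahnak2 with a 95% exact interval from 0.703 to 1.14, 0.788 in Npas3 (0.360 to 1.66) and 1.21 in Gm38407 (0.397 to 3.70). These intervals cover counting error alone. Without Pspc1-KO replicate 1, which held 10 of the 13 reads at Npas3, the ratio was 0.278 there and 0.696 at Gm38407, and without WT replicate 1 it was 3.19 at Gm38407, so the counts at these loci are too few to set the ratio. At Ahnak2 the input ratio ran from 0.779, without Pspc1-KO replicate 1, to 0.971, without Pspc1-KO replicate 3. Over the 32 windows listed there the Pspc1-KO IP libraries held 65.2% of the WT level, which was not tested against the input. WT IP libraries held 535, 540 and 543 RPM in the 43 windows, 112-fold more than WT input (log2 difference 6.80, SE 0.12), which is a description with no test, since the windows were listed from these same WT IP libraries.

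Knockdown of Nsun2, which encodes an RNA m5C methyltransferase, was compared with siNC in both genotypes. In Tet2-KO cells the siNsun2 comparison, which takes the Tet2-KO siNC libraries as its control, listed 3 windows on chromosome 12 of 244 in the genome, and in WT cells it listed 0 of 31. The 3 windows were not members, and the nearest member lay 298500 bp away. The window in Bzw2 read 70.2, 69.3 and 77.9 RPKM with siNsun2 and 120, 146 and 132 with siNC.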

How the data were processed

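MeDIP reads were, per the labels and the methods, trimmed with Trimmomatic 0.39, aligned to mm10 with Bowtie2 2.4.1, cleared of duplicates with Picard and compared by the authors with MEDIPS and edgeR in 100 bp windows (row sum of at least 10, no copy-number correction, Bonferroni). The deposited tables hold windows with an adjusted p-value under 0.1. They give raw read counts, RPKM computed by the authors, the relative methylation score as a fraction, and the authors' fold changes (log2 scale) and p-values, which were not used except that the ratio of adjusted to raw p-value gave the number of windows tested. The deposited CpG coupling score equalled the CpG count of the window. Whether a fragment was counted in more than 1 window is not given in the sources used here.

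Library totals were recovered from count and RPKM. Pairs of replicates were compared by chi-square over windows with at least 20 reads. The 3 Pspc1-KO IP libraries agreed within sampling noise in every pair (0.783 to 1.01) and were kept as 3, and WT IP replicates 1 and 2 (0.940) were averaged. Means of RPKM gave the direction, with a pseudocount of 0.1 for log2. Genes were taken from GENCODE vM21. The members and lists were chosen with earlier results of these data known, and the result of 1 gene list is not reported here. Regions were named as the 3 of at least 2 windows with the largest difference in mean RPKM per direction in and outside the block. Only regions whose Tet2-KO and WT libraries did not overlap were eligible, which held for every region. Protein-coding genes were named as the 10 with most windows in and outside the block, with ties. The functions were tested on simulated data (Python 3.11.15, scipy 1.17.1, and edgeR for TMM factors). Alternatives were other pseudocounts, read minimums, scalings, copy filters, region gaps and each library left out. The depth limits windows near 3 reads per library.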

Additional observations from a re-analysis of the deposited data

How the results depend on the processing

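Directions of all members were kept under every alternative except the scalings. Median differences below are log2, for lower windows of the chromosome, the block and the rest, then for higher windows where they moved by more than the spread of the samples. A pseudocount of 0.5 gave -3.16, -3.58 and -2.66, and 2.92 for higher windows of the block. A pseudocount of 1 gave -2.89, -3.11 and -2.51, and 2.0 and 2.65 for higher windows of the chromosome and the block. At least 50 reads gave -2.93, -3.44 and -2.61, then 1.85 and 2.96. Windows with 1 reference copy numbered 253, 111 and 142 lower and 13, 5 and 8 higher, with medians of -4.56, -4.60 and -4.45, and of 2.72, 2.96 and 2.42. Counting each library as 1 replicate gave -3.37 for the chromosome. Merging over gaps of up to 1000 bp gave 244 lower and 17 higher regions.

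Scaling to the listed windows, most of which are lower, raises every difference by construction, by a median of 1.85 (median-of-ratios) or 1.87 (TMM). The split became 904 lower and 229 higher (79.8% lower) or 895 and 238 (79.0%), with 70 and 159, or 73 and 165, higher windows in the block and the rest. Lower medians were -2.22, -2.62 and -1.77, or -2.23, -2.60 and -1.79, and higher medians 0.47, 0.52 and 0.44 under both. The Ahnak2, Npas3 and Asap2 regions named above and those at 91140001 and 98355501 turned to higher relative to that shift, while the tandem array did not.

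Added after the data were seen, leaving out the flank gave 324 lower windows and -2.28 in the rest, and windows at the floor put at their bound gave -2.40, -2.55 and -2.32, then 1.85 and 2.29.

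Leaving out each library gave medians from -3.47 to -3.35 (chromosome), -4.13 to -3.97 (block) and -2.91 to -2.73 (rest) for lower windows, and 2.03 to 2.38, 3.09 to 3.80 and 1.61 to 1.93 for higher ones. The input difference ran from -0.48 to -0.04 and IP against input from 6.69 to 6.89. Same-numbered input and IP samples did not deviate together (correlations from -0.00087 to 0.14). Over the 43 windows the input held only 34 to 68 reads per library. Counting noise could therefore hide a pairing, and this check cannot exclude one. With the replicate block the differences stayed -0.22 (exact sign-flip permutation, p = 0.5) and 6.80 (given without a test, as the windows were chosen on the IP libraries). Counting the WT IP pair once, also added after the data were seen, gave 6.81.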
